A study of Mus musculus with 9 samples.

Results

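Cytochrome P450 enzymes of families 1, 2 and 3 oxidise drugs, plant and dietary chemicals, steroids, fatty acids and bile acids, chiefly in the hepatocytes around the central vein of the liver. Each enzyme is held in the membrane of the endoplasmic reticulum, carries a haem group and receives its electrons from P450 oxidoreductase, in part by way of cytochrome b5. Their genes lie in clusters of close copies, and many respond to the dioxin receptor, to the nuclear receptors CAR and PXR, to the pulsed growth hormone that sets male and female patterns, and to the body clock. The genes examined here were those whose symbol begins with Cyp1, Cyp2 or Cyp3 followed directly by a letter, without the names marked as pseudogenes (-ps). This gave 61 genes of the 54532 in the count table, and 23 -ps names were left out.

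RNA was sequenced from whole liver of 9 male C57BL/6 mice, in 3 groups of 3. The young mice were 8 weeks old, and the labels describe no injection of them. Old control mice were 20 months old and had received AAV9-shRNA-Neg, an adeno-associated virus carrying a negative control hairpin RNA, at 14 months, by injection into a tail vein and into fat under the skin. The remaining old mice had the same age and the same injections with AAV9-shRNA-Fabp4, against a fatty acid carrier of fat cells and macrophages. Age and virus therefore cannot be told apart in either comparison with young liver. The labels name no promoter for the hairpins, and their extraction text speaks of NRVMs, whereas the tissue is given as liver.

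The level of the targeted gene and the contents of a young library bear on the results below. The targeted gene Fabp4 was 7.21, 13.6 and 10.9 CPM (counts scaled to library size with edgeR's TMM factors) in old control replicates 1, 2 and 5. It was 11.2, 3.81 and 7.58 CPM in replicates 1, 3 and 6 labelled old Fabp4 shRNA, so these groups overlapped. The edgeR fit described below gave a log2 fold change of -0.49 ± 1.16 (SE, adjusted p = 0.96). This is too imprecise to show whether Fabp4 was lowered, and the label is used below only as a name. One young count column carries a number that no young label has and is called the unnumbered young library. It held 64.8 CPM of Fabp4 and 3893 CPM in sum over 10 skeletal muscle markers, against 0.589 to 84.3 CPM in the other 8 libraries. The deposited FPKM column of the same name holds other reads, which were recovered and used as an alternative. The 10 hepatocyte markers were present in every group, at sums of 121949 to 189205 CPM in young liver. In old control they summed to 101223 to 156219, and under the label old Fabp4 shRNA to 85611 to 99513. The last range lay below both others. The 6 bile duct markers summed to 54 to 57.4, 65.5 to 158 and 22.3 to 41.5 CPM, and the 6 red cell markers to 521 to 1026, 188 to 328 and 170.2 to 359 CPM, in the same order. Their part in the P450 differences was not tested. In bulk liver, fewer cells of a type and less RNA per cell cannot be told apart.

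The P450 genes of these families took 2.34% ± 0.365 (SD, n = 3) of all counts in young liver, 1.97% ± 0.059 in old control liver and 2.64% ± 0.687 in the livers labelled old Fabp4 shRNA. The single highest share, 3.42%, was in old Fabp4 shRNA replicate 1, and the lowest, 1.91%, in old control replicate 1. The young range, 2.06% to 2.75%, lay just above the old control range, 1.91% to 2.03%, while the third group, from 2.12% to 3.42%, overlapped the young. With the recovered reads the unnumbered young library stood at 1.97%, within the old control range. Total counts per library were 14243344 to 17125440, so that 3 counts stood for 0.157 to 0.229 CPM.

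Levels were compared between genes per kilobase of exon. Cyp2e1, which oxidises ethanol and acetone, held 44% of the summed level of the 61 genes, with a mean of 4243 CPM per kilobase. Cyp3a11, the main PXR-responsive enzyme of mouse liver, followed with 826 and 8.57%. Next in order were Cyp2d10 at 545, Cyp2d26 at 473, Cyp3a25 at 468, Cyp2d9 at 413 and Cyp2a5 at 364 CPM per kilobase. The ranges of these neighbours over the 9 livers overlapped, and only Cyp2e1 (3041 to 6410.1) lay above every value of Cyp3a11 (398 to 1106). A mean of at least 100 CPM per kilobase was reached by 18 genes, which together held 96.6% of the sum. A further 7 genes lay between 10 and 100, 9 between 1 and 10, and 21 above 0 but below 1. No read was counted for Cyp2b23, Cyp2c66, Cyp2j7, Cyp2j12, Cyp2j13 and Cyp2w1.

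**Figure D1:**
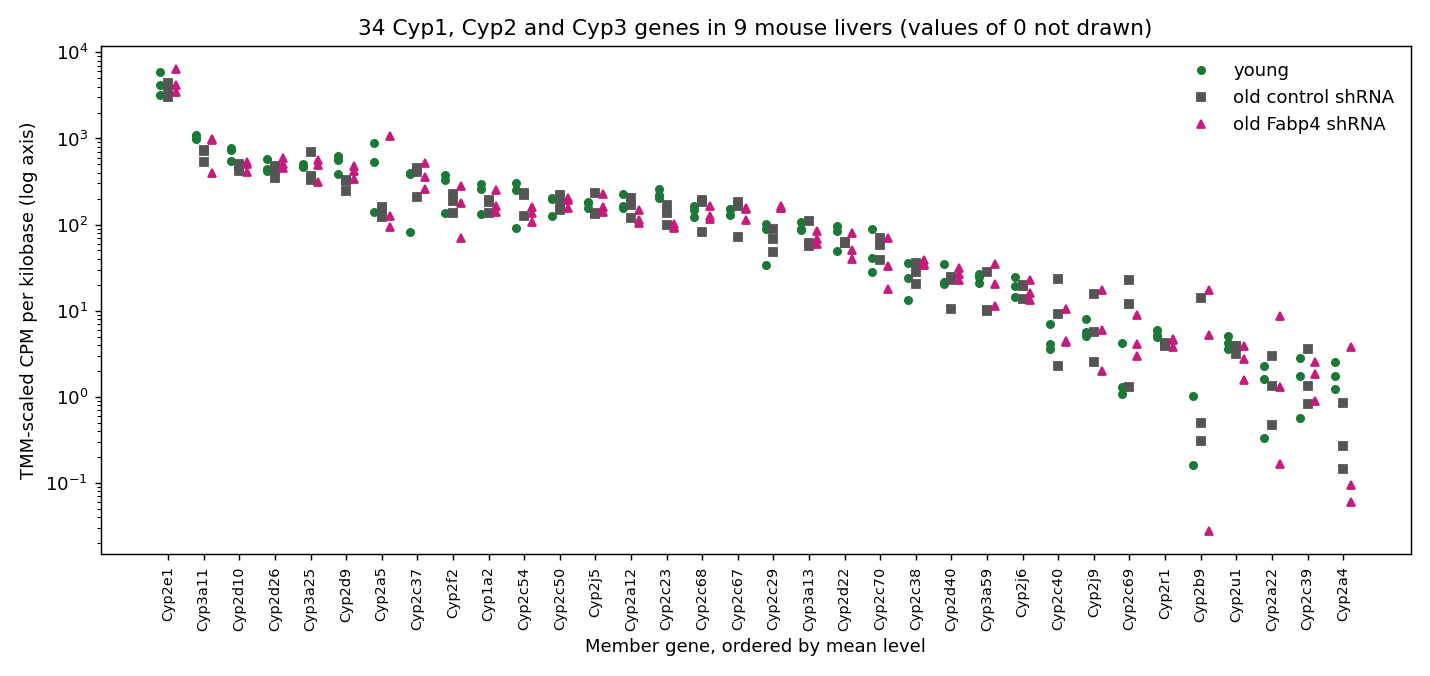
Level of the 34 genes with a mean of at least 1 CPM per kilobase (log axis) in each of 9 livers, ordered by mean, with 1 symbol per liver and group. Cyp2e1 stands at 3041 to 6410.1, and the spread among livers widens among the low genes, as for Cyp2b9.

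By subfamily, Cyp2e made up 38% to 49.9% of the summed level in each library, Cyp2d 12.4% to 19%, Cyp3a 9.5% to 20.4% and Cyp2c 11.7% to 17.5%. The Cyp2c cluster is the largest, with 15 genes on chromosome 19. Its summed level was 1356 ± 304 CPM per kilobase in young, 1336 ± 389 in old control and 1311 ± 168 in the third group (SD, n = 3), with overlapping ranges. Cyp2d, 8 genes on chromosome 15, summed to 2103, 1418 and 1851 in young replicate 1, the unnumbered young library and young replicate 5. The old control livers held 1312, 1249 and 1255, all below the young, and those labelled old Fabp4 shRNA 1587, 1417 and 1482, all above old control. Cyp3a, with 9 genes on chromosome 5, summed to 1606, 1699 and 1605 in young and 963, 1166 and 1531 in old control liver. In the third group its sums were 1620.0, 809 and 1554, which spanned both. Young and old control lay apart on these counts, but with the recovered reads the unnumbered young library summed to 1397, below the 1515 of old control replicate 5. The Cyp2d sums of young and old control still did not overlap then. Cyp2a varied most among the abundant subfamilies, from 238 to 1184 within the livers labelled old Fabp4 shRNA alone.

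**Figure D2:**
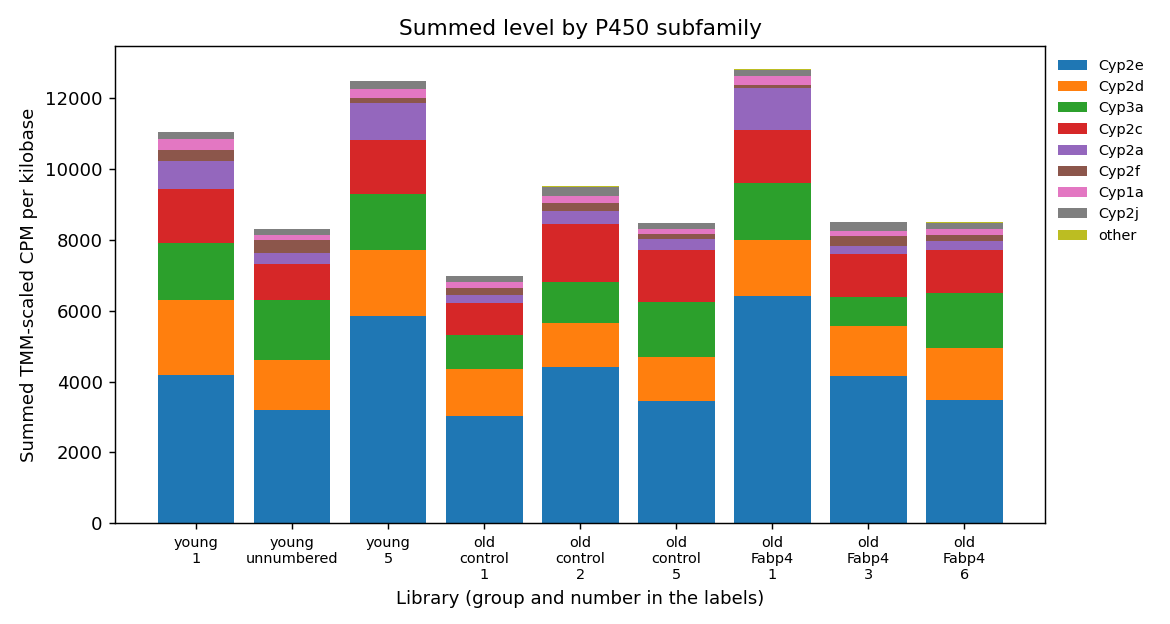
Summed level per library in CPM per kilobase, stacked by P450 subfamily, for 3 young, 3 old control and 3 old Fabp4 shRNA livers, named by the number in their labels. Cyp2e is the largest block in each bar, and the Cyp2a block runs from 238 to 1184 among the old Fabp4 shRNA livers.

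The count filter left 39 of the 61 genes for testing, and 22 were not tested. Besides the 6 genes at 0, these were 16 genes with at most 70 counts over all 9 libraries, among them Cyp2b10, Cyp2b13, Cyp3a16, Cyp3a41a, Cyp3a41b and Cyp3a44. Cyp2b10, the classical CAR target, was between 0.153 and 1.26 CPM in every liver. A quasi-likelihood model of edgeR was fitted to all tested genes, with Benjamini-Hochberg adjustment over all 14025 of them, and a gene was called at an adjusted p under 0.05. None of the 39 P450 genes was called in any of the 3 comparisons, and leaving out each library in turn gave 0 calls as well. The background was low as well: 0.0357% of all tested genes were called for old control against young, 0% for old Fabp4 shRNA against old control and 0.057% for old Fabp4 shRNA against young (0.0499% higher and 0.00713% lower).

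In old control against young liver, 26 of the 39 genes had a lower and 13 a higher mean, with a median log2 difference of -0.17, beside 0.01 over all tested genes. The unadjusted p was under 0.05 for 4 lower genes (Cyp2c23, Cyp2d9, Cyp1a1 and Cyp2d10) and 1 higher gene (Cyp2c69), or 12.8%. Of all tested genes 4.07% were lower and 6.42% higher in this way, 10.5% together. All 3 old control livers lay below all 3 young livers for 7 genes, Cyp2c23, Cyp2d9, Cyp1a1, Cyp2d10, Cyp3a11, Cyp2r1 and Cyp2a4, where 8.26% of all tested genes did so, and for no P450 gene did they all lie above, where 8.89% did. In both directions the share was 17.9% of the P450 genes and 17.2% of all tested genes, close to the background. With the recovered reads in place of the unnumbered young column, 10 of 40 genes lay lower (11.5% of all) and 1, Cyp1b1, higher (10.8%). Cyp2a4 was no longer among the lower ones, and Cyp1a2, Cyp2a5, Cyp2d22 and Cyp2u1 were added. DESeq2 called 0 genes here and had 6 of 55 at an unadjusted p under 0.05, beside 6.6% of all genes. By edgeR that number was 3 of 41 without young replicate 1 (8.11% of all) and 9 of 40 with the recovered reads (13.9% of all).

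Cyp2c23 (ENSMUSG00000025197), an arachidonic acid epoxygenase at 44005022 to 44029208 on chromosome 19 (GRCm38), was 554, 477 and 438 CPM in the young livers. It was 211, 295 and 360.2 CPM in old control and 195, 220.4 and 204 CPM in the livers labelled old Fabp4 shRNA. Both old groups lay wholly below the young, and they overlapped each other. Old control against young gave a log2 fold change of -0.76 ± 0.24 (SE, adjusted p = 0.321), and old Fabp4 shRNA against young -1.24 ± 0.24 (adjusted p = 0.149). The latter was the smallest adjusted p of any P450 gene. It passed the threshold in 4 alternatives: with no filter on low counts (adjusted p = 0.00482), with DESeq2 (0.000442), with limma on log2(FPKM + 0.1) (0.0429) and with the recovered reads (0.0393). The fold there was between -1.24 and -1.31, so the size barely moved while the call did. Leaving out each library in turn gave folds from -1.32 to -1.15 and no adjusted p below 0.0977. Between both old groups the difference was -0.48 ± 0.24 (adjusted p = 0.741).

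Cyp2d9 and Cyp2d10 are among the abundant Cyp2d genes of male mouse liver, and Cyp2d9 hydroxylates testosterone. Cyp2d26, also abundant here, had a fold of -0.17 ± 0.24 for old control against young (adjusted p = 0.834). Cyp2d9 stood at 1668, 1029 and 1498 CPM in young, 870.1, 654 and 857 in old control and 1277, 893 and 1124 in the livers labelled old Fabp4 shRNA. The old control values lay below both other groups without overlap. Its fold was -0.82 ± 0.26 for old control against young (adjusted p = 0.346) and 0.47 ± 0.26 for old Fabp4 shRNA against old control (adjusted p = 0.768). Cyp2d10 was 1286, 896 and 1198 CPM in young, 689, 782 and 842 in old control and 831, 671 and 883 in the third group. Both old groups lay below the young and overlapped, with folds against young of -0.55 ± 0.24 and -0.5 ± 0.24 (adjusted p = 0.447 and 0.557). Cyp2d10 shares 35.8% of its 50-base windows with other genes, so part of its reads could come from Cyp2d copies.

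Cyp3a11 was 5020.0, 5633 and 5181 CPM in young liver and 2708, 3647 and 3777 in old control. In the livers labelled old Fabp4 shRNA it was 4895, 2029 and 4959 CPM. Old control and young did not overlap, while the third held 2 livers near the young values and 1 below every other liver. The fold was -0.64 ± 0.33 for old control against young (adjusted p = 0.513) and -0.41 ± 0.33 for old Fabp4 shRNA against young (adjusted p = 0.72). With the recovered reads the young library stood at 3918 CPM, still above old control. The neighbouring Cyp3a25 ranged from 654 to 1458 CPM with folds of -0.05 ± 0.32 and -0.03 ± 0.32 in the aged and the hairpin comparison.

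Of the dioxin-receptor genes, Cyp1a2, a constitutive liver enzyme of caffeine and aromatic amines, was 589, 266 and 524 CPM in young and 365, 389.7 and 276 in old control, and 514, 283 and 328 in the third group. All 3 groups overlapped, at -0.42 ± 0.32 for old control against young (adjusted p = 0.667). The lowest young value was that of the unnumbered library, and the recovered reads put it at 873 CPM. Both old groups then lay below the young without overlap, at -0.98 for old control (adjusted p = 0.164). The fold was -0.73 without that library and -0.21 without young replicate 1. Cyp1a1, its inducible neighbour, was 0.813, 1.79 and 0.84 CPM in young and 0.232, 0.368 and 0.253 in old control, near the level of 3 counts. Its fold of -2 ± 0.71 (adjusted p = 0.383) therefore rests on few reads. Cyp1b1, mostly expressed outside the hepatocyte, stayed between 0.458 and 4.17 CPM.

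Cyp2r1, the vitamin D 25-hydroxylase, was even across livers: 10.6, 11 and 12.6 CPM in young, 8.95, 8.39 and 8.14 in old control and 8.06, 9.65 and 10 in the third group. Both old groups lay below the young by a small margin, at -0.42 ± 0.22 and -0.3 ± 0.22 (adjusted p = 0.524 and 0.702). Cyp2e1 ranged from 6562 to 13833 CPM with all groups overlapping, and its fold was -0.28 ± 0.32 for old control against young and 0.37 ± 0.32 for old Fabp4 shRNA against old control (adjusted p = 0.79 and 0.875). Cyp2f2, a periportal enzyme known for naphthalene oxidation in the airway, ranged from 143 to 761 CPM, with -0.6 ± 0.48 in the first of these comparisons (adjusted p = 0.684). Cyp2j5, an epoxygenase of fatty acids, kept within 311 to 544 CPM and had folds of -0.04 ± 0.27 and 0.07 ± 0.27.

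**Figure D3:**
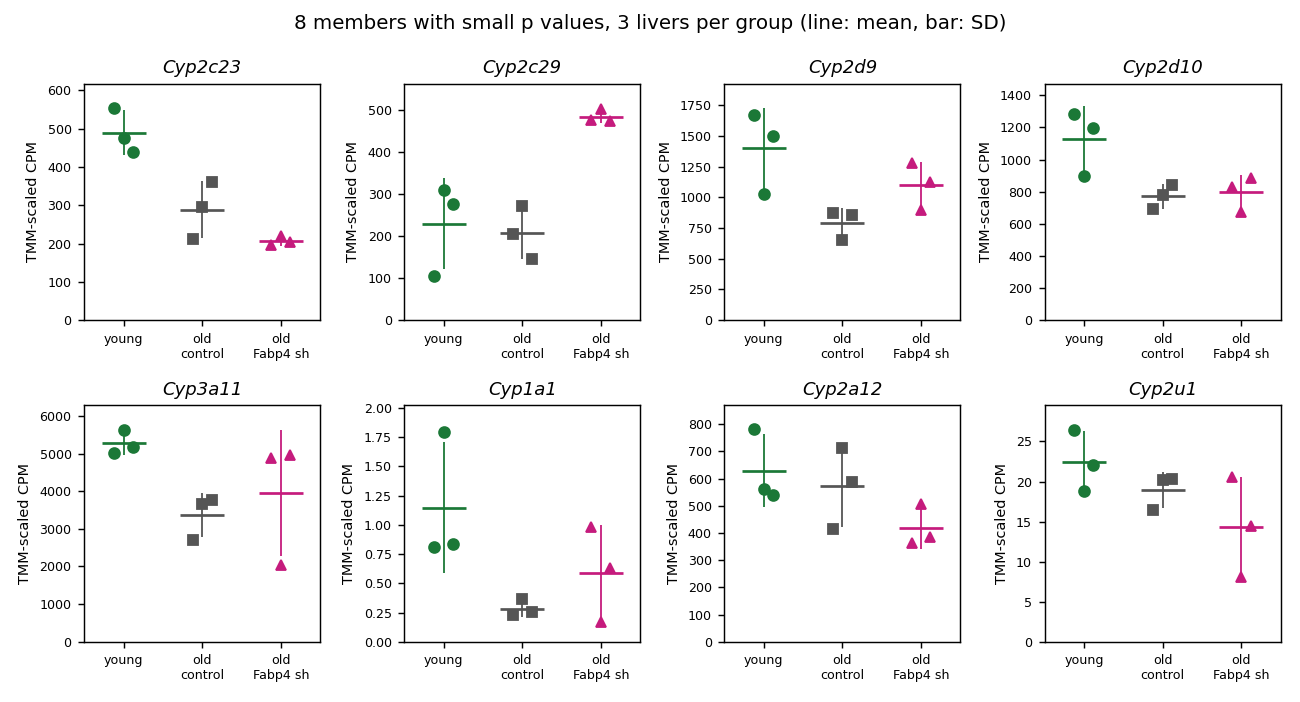
TMM-scaled CPM of 8 P450 genes in 3 young, 3 old control and 3 old Fabp4 shRNA livers, with 1 point per liver, the group mean as a line and the SD as a bar. Cyp2c29 lies at 473 to 501 CPM in the third group, above both others. Cyp2c23 has its lowest mean there, at 195 to 220.4 CPM, and overlaps old control.

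In old Fabp4 shRNA against old control liver, 22 genes had a higher and 17 a lower mean, with a median log2 difference of 0.06, beside -0.01 over all tested genes. The unadjusted p was under 0.05 for 2 higher genes, Cyp2c29 and Cyp2d11, and for 0 lower ones, or 5.13%. Of all tested genes 3.27% were higher and 3.48% lower, 6.75% together. The groups did not overlap for 2 genes, Cyp2c29 and Cyp2d9, both higher, where 6.02% of all tested genes were higher in this way and 5.67% lower. In both directions the share was 5.13%, beside 11.7% of all tested genes. DESeq2 called 0 genes and had 3 of 55 at an unadjusted p under 0.05 (4.22% of all). By edgeR that number was 6 of 41 without old control replicate 1 (5.75% of all) and 4 of 42 without old Fabp4 shRNA replicate 1 (10.7% of all). It was 1 when any of young replicate 1, young replicate 5, old control replicate 2 and replicate 6 of the third group was left out, beside 6.08%, 6.15%, 7.14% and 4.67% of all genes.

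Cyp2c29 (ENSMUSG00000003053), a CAR-responsive epoxygenase at 39269405 to 39330713 on chromosome 19, was 476, 501 and 473 CPM in the livers labelled old Fabp4 shRNA. Old control liver held 205, 271 and 146 CPM and young liver 105, 309 and 275 CPM. The third group lay above every liver of both others and was the most even. The log2 fold change was 1.22 ± 0.36 against old control (adjusted p = 0.728) and 1.07 ± 0.36 against young (adjusted p = 0.452). Without each library in turn, the first stayed between 1.02 and 1.46. The gene overlaps the pseudogene Cyp2c53-ps on the same strand. Cyp2b10, with CAR as its best known regulator, did not pass the count filter, and Cyp3a11 had a fold of 0.23 ± 0.33 in this comparison (adjusted p = 0.93).

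Cyp2d11 (0.465, 0 and 0.253 CPM in old control, 0.366, 0.772 and 1.67 in the third group) lay near the level of 3 counts and shares 37.2% of its windows with other genes. Its fold was 1.89 ± 0.86 (adjusted p = 0.728), with overlapping groups, and 1.19 without replicate 6 of the third group. Cyp2a12 was 413, 714 and 588 CPM in old control and 364, 506 and 386 in the third group, at -0.45 ± 0.27 (adjusted p = 0.788) and -0.25 without old control replicate 2. Cyp2d40 was 44.9, 41.5 and 18.9 against 41, 56.3 and 48.3 CPM, at 0.47 ± 0.32 (adjusted p = 0.825) and 0.17 without old control replicate 5.

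In old Fabp4 shRNA against young liver, 22 genes had a lower and 17 a higher mean, with a median of -0.11 beside 0.02 over all tested genes. This comparison shares its young livers with the first and its old livers with the second, so its values are not independent of theirs. The unadjusted p was under 0.05 for 3 lower genes, Cyp2c23, Cyp2a12 and Cyp2u1, and 1 higher gene, Cyp2c29, or 10.3%. Of all tested genes 4.5% were lower and 4.43% higher, 8.93% together. Groups without overlap were found for 6 lower genes, Cyp2c23, Cyp2a12, Cyp2d10, Cyp3a13, Cyp2r1 and Cyp3a11, and 1 higher, Cyp2c29, where 6.67% and 6.79% of all tested genes were so placed. Both directions together made 17.9%, beside 13.5% of all tested genes. With the recovered reads 9 of 40 genes were lower (10.5% of all): Cyp1a2, Cyp2a12, Cyp2c23, Cyp2c54, Cyp2d9, Cyp2d10, Cyp2d22, Cyp2r1 and Cyp2u1. Cyp3a11 and Cyp3a13 were then not among them, and 2 genes, Cyp2c29 and Cyp1b1, were higher (11.6%). The count at an unadjusted p under 0.05 was 7 of 55 by DESeq2 (6% of all), which called 1 gene, and 10 of 40 with the recovered reads (17.2% of all). Leaving out single libraries from the edgeR fit gave 8 of 42 without the unnumbered young library (12.5% of all) and 7 of 42 without replicate 1 of the third group (15% of all). It gave 2 without each of young replicate 1, old control replicate 5 and replicate 6 of the third group, beside 5.2%, 7.98% and 7.28% of all genes.

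Cyp2a12, a steroid hydroxylase, was 783, 562 and 541 CPM in young against 364, 506 and 386 in the third group, without overlap, at -0.59 ± 0.27 (adjusted p = 0.554). Cyp2u1, which hydroxylates fatty acids at the end of the chain, was 26.4, 18.8 and 22.1 against 20.6, 8.11 and 14.4 CPM, with overlap, at -0.64 ± 0.3 (adjusted p = 0.557). With the recovered reads the unnumbered young library held 59.2 CPM of it, the groups no longer overlapped and the fold was -1.33 (adjusted p = 0.133). On the counts as deposited, the fold was -0.36 without replicate 3 of the third group. Cyp2c54 was 540.3, 164 and 450.4 against 282, 243 and 193 CPM, at -0.69 ± 0.39 (adjusted p = 0.611). The unnumbered young library was its lowest liver, below every liver of the third group. The recovered reads put it at 278 CPM. That fit rescaled all libraries, and only on its scale did the groups not overlap. The fold was -0.36 without young replicate 1 and -1.05 without the unnumbered young library. Cyp2c38 had means of 69.2 ± 31.7 CPM in young and 103 ± 7.36 in the third group (SD, n = 3), at 0.57 ± 0.31 (adjusted p = 0.601). That fold came to 0.28 when the unnumbered young library was left out and to 0.96 without young replicate 5.

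The remaining tested genes had overlapping groups in most comparisons. Cyp2c37, the most abundant Cyp2c gene, was 728, 149 and 698 CPM in young, 380.2, 839 and 749 in old control and 938, 469.7 and 646 in the third group, with the unnumbered young library lowest. Its folds were 0.32 ± 0.53 for old control against young and 0.06 ± 0.53 for old Fabp4 shRNA against old control. Cyp3a13, also expressed in the gut, was 262, 314 and 255 CPM in young and 177, 251 and 198 in the third group, without overlap, at -0.41 ± 0.27 (adjusted p = 0.665). With the recovered reads the unnumbered young library held 162 CPM, and the groups overlapped. Cyp2c50 stayed within 369 to 648 CPM, Cyp2d26 within 626 to 1060.1 and Cyp2d22 within 154 to 372 CPM over the 9 livers. Cyp2c70, which makes the muricholic acids typical of mouse bile, ranged from 35.3 to 177 CPM, with folds of 0.06 ± 0.53 and -0.47 ± 0.53 in the same order of comparisons. Cyp2j6 ranged from 48.3 to 89.8 CPM, Cyp2j9 from 6.56 to 58.5, Cyp3a59 from 19.7 to 68.8 and Cyp2c39 from 1.02 to 6.48 CPM. Near the level of 3 counts, Cyp2c55 ranged from 0.517 to 1.22 CPM, and Cyp2g1, known from olfactory tissue, from 0.11 to 3.36 CPM. None of these genes passed in any comparison.

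**Figure D4:**
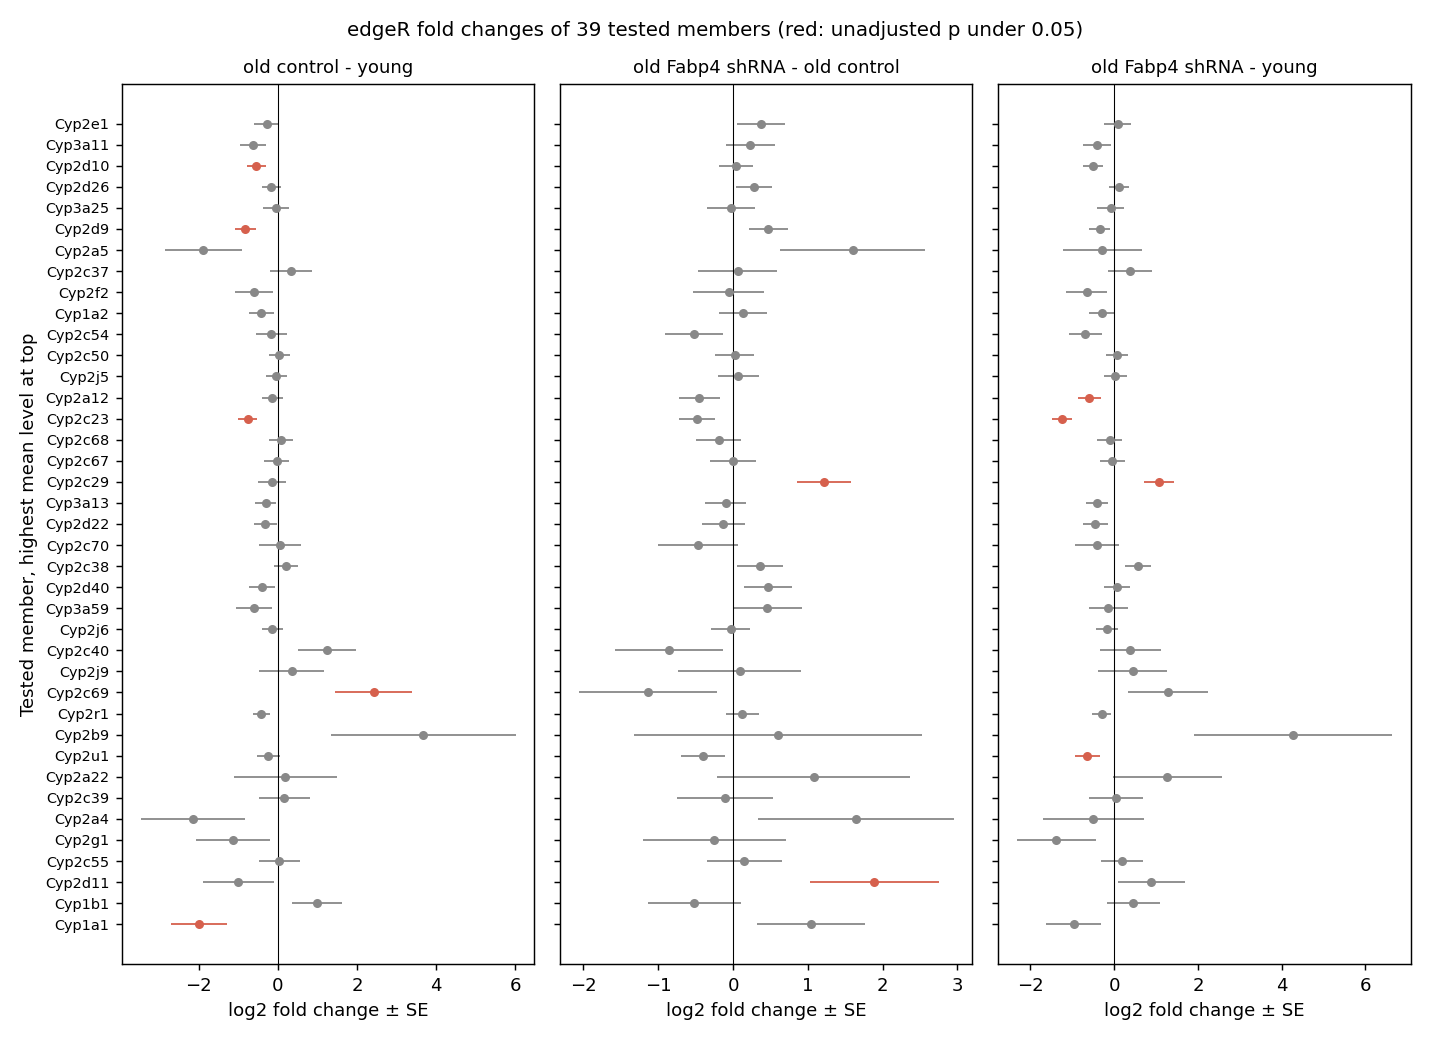
Log2 fold change with its standard error for the 39 tested P450 genes in the 3 comparisons, ordered by mean level, in red where the unadjusted p was under 0.05. None passed after adjustment, and the widest bars belong to low or uneven genes such as Cyp2b9, at 4.27 ± 2.36 in the last panel.

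The spread between livers of 1 group was wide for several P450 genes. Among the 29 tested P450 genes with a mean of at least 10 CPM, the median SD within groups was 0.46 on the log2 scale, beside 0.29 for all 7392 tested genes at that level. An SD above 1 was found for 4 of the 29, and for 1.39% of all. Over all tested P450 genes the spread was largest for Cyp2b9 (2.4), Cyp2a22 (1.71), Cyp2a5 (1.36), Cyp2c69 (1.35) and Cyp2a4 (1.26).

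Cyp2a5, the coumarin and nicotine hydroxylase of mouse liver, was 1117, 290.4 and 1830.2 CPM in young and 252, 334 and 294 in old control. The third group held 2210.3, 194 and 262 CPM, an 11.4-fold span, with replicate 1 the highest of all 9 livers. The 3 old control livers were within 1.32-fold of each other and below 2 of the 3 young livers. The fold was -1.88 ± 0.98 for old control against young (adjusted p = 0.543) and 1.6 ± 0.97 for old Fabp4 shRNA against old control (adjusted p = 0.805), and the latter turned to -0.36 without old Fabp4 shRNA replicate 1. The recovered reads put the unnumbered young library at 419.8 CPM, and all old control livers then lay below the young. Cyp2a4, its neighbour and a testosterone 15-alpha-hydroxylase, stood at a far lower level: 3.03, 4.34 and 2.14 CPM in young, 0.465, 1.47 and 0.253 in old control and 6.53, 0.165 and 0.104 in the third group. Replicate 1 of the third group was again the highest liver, whereas the unnumbered young library, the lowest of the young for Cyp2a5, was the highest of them for Cyp2a4. With the recovered reads that library held 0.874 CPM of Cyp2a4 and was the lowest of the young for both genes. As 36.1% of the 50-base windows of Cyp2a4 also occur in Cyp2a5, reads of the abundant gene could be counted for the rare one. Both genes passed the threshold for old control against young in a fit, added after seeing the data, to the 5 libraries with the numbers 1 and 5, from which the unnumbered young library is absent. Cyp2a5 was there at -2.46 (adjusted p = 0.00358) and Cyp2a4 at -2.85 (adjusted p = 0.0342).

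The upstream sequences of these 2 genes are shown because both genes had their highest value in the same liver and both hold a D-box, the site of the clock output factors Dbp, Tef and Hlf. They are the 250 bases before the start site, 5′ to 3′, from RefSeq (GRCm38.p6), at chr7:26835089-26835338 and chr7:26306942-26307191, both on the plus strand. Capitals mark the D-box, here on the opposite strand, and the TATA box.
Cyp2a5: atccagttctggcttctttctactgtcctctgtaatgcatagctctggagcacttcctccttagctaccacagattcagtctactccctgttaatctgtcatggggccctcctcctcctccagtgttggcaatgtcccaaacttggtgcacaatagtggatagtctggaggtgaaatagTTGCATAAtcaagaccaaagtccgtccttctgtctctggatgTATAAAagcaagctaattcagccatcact
Cyp2a4: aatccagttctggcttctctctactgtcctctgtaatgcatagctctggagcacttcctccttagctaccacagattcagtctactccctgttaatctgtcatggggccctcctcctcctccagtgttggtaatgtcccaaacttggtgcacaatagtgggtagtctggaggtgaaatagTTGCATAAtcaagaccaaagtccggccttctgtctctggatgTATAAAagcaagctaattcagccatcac
Shifted by 1 base, they agree at 245 of 249 positions (98.4%). The D-box begins at -71 in Cyp2a5 and -70 in Cyp2a4, counted back from the start site. Their highest liver, old Fabp4 shRNA replicate 1, was also the highest for Cyp2a22 (29.9 CPM) and Cyp2e1 (13833 CPM). Neither had an exact D-box match in the 250 bases searched. For Cyp2a12 this liver was the lowest (364 CPM). Cyp2b10, with a D-box match, was 0.183 CPM in this liver and 1.26 CPM in its highest, young replicate 1. These genes were picked after their values were seen, and the part of the D-box was not tested.

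Dbp, known as a regulator of Cyp2a4 and Cyp2a5, was set beside them after its values had been seen. It stood at 100.3, 32.4 and 90.1 CPM in young liver, 0.581, 0.589 and 16.4 in old control and 53.5, 0.496 and 4.86 in the livers labelled old Fabp4 shRNA. The young livers lay above the old control livers, and replicate 1 of the third group, the highest in Cyp2a5, was also its highest in Dbp. Dbp was compared with all 39 tested P450 genes on the scale of log2(CPM + 0.1), with exact permutation tests. Livers were permuted without regard to group, so the correlations and their p-values mix differences between groups with those between livers of 1 group. Because 3 livers lay under 1 CPM, apart from the other 6, values are given first within those 6. Cyp2a5 had r = 0.79 (two-sided exact permutation p = 0.0667, adjusted 0.574) and rho = 0.71 (p = 0.136, adjusted 0.59), and r = 0.67 without the 2 livers farthest from the median. Cyp2a4 had r = 0.82 (two-sided exact permutation p = 0.0472, adjusted 0.574) and rho = 0.54 (p = 0.297, adjusted 0.61). Its r was -0.65 without the 2 farthest livers, so that the relation rests on them. None of the 39 genes passed after adjustment, with a lowest adjusted p of 0.244 for r and 0.325 for rho by the exact permutation test. Over all 9 livers none passed either (lowest adjusted p 0.0603 and 0.06, exact permutation test), although 9 and 8 genes had an unadjusted p under 0.05. Cyp2a5 then had r = 0.76 (exact permutation p = 0.0177, adjusted 0.113) and rho = 0.82 (p = 0.0108, adjusted 0.084). For Cyp2a4 these were r = 0.63 (exact permutation p = 0.0757, adjusted 0.267) and rho = 0.68 (p = 0.0503, adjusted 0.218). The part of Dbp in the spread of Cyp2a5 was not tested.

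**Figure D5:**
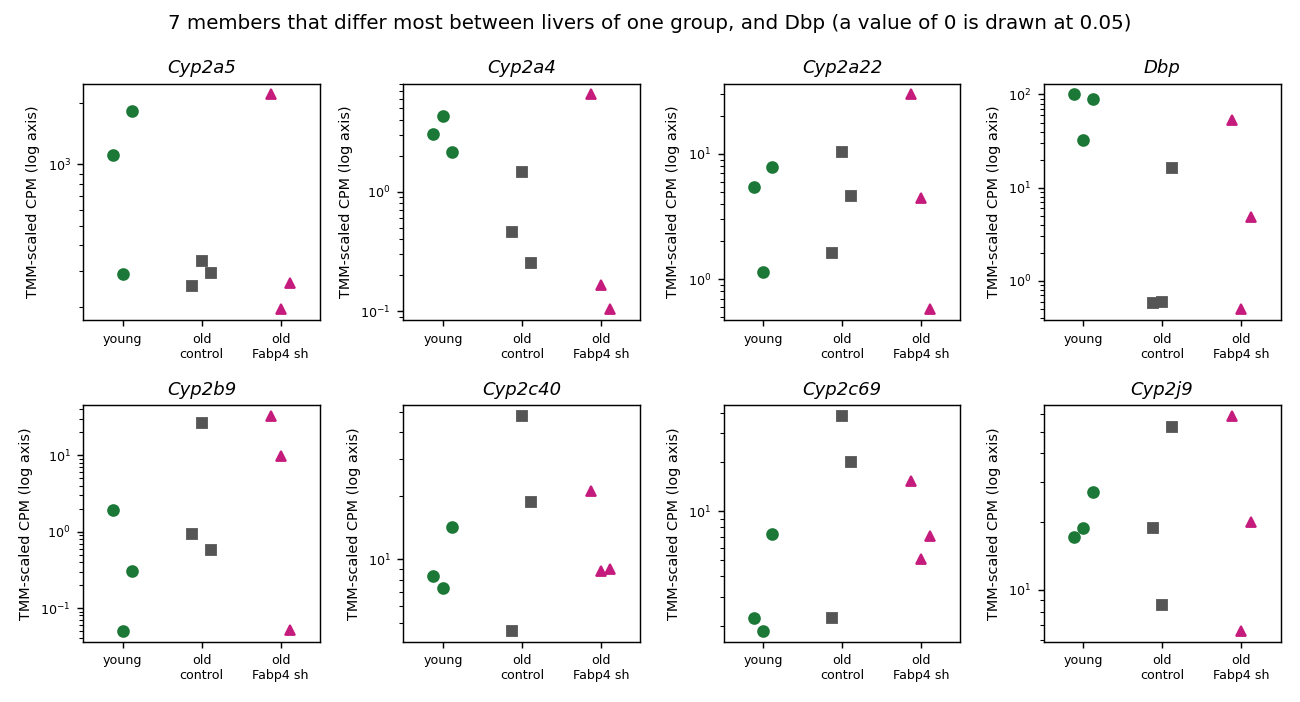
TMM-scaled CPM (log axis) of 7 P450 genes with a wide spread within groups, and of Dbp, with 1 point per liver. In the third group Cyp2a5 runs from 194 to 2210.3 CPM, and Dbp from 0.496 to 53.5 CPM with the same liver highest.

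Some other uneven genes were ones known to be higher in female than in male mouse liver. Of 9 such genes listed, 4 passed the count filter, and none was called in any comparison. Cyp2a22 and Cyp2j9, with a within-group SD of 1.71 and 1.17, were uneven too and are not among the 9. Cyp2b9 was 1.92, 0 and 0.305 CPM in young, 0.93, 26.7 and 0.568 in old control and 32.7, 9.71 and 0.0522 in the third group. It was thus high in 3 of the 6 old livers and below 2 CPM in the other 6 mice, with folds of 3.67 ± 2.34 and 4.27 ± 2.36 against young (adjusted p = 0.614 and 0.628). The first of these was 0.04 without old control replicate 2 and 5.96 without young replicate 1, and the second 2.73 without replicate 1 of the third group and 6.56 without young replicate 1. Cyp2c69 was 2.22, 1.85 and 7.25 CPM in young, 2.21, 38.2 and 20.1 in old control and 15.4, 5.07 and 7.05 in the third group. All groups overlapped, at 2.42 ± 0.97 for old control against young (adjusted p = 0.445). Cyp2c40 was 8.35, 7.34 and 14.3, then 4.59, 47.6 and 18.7, then 21.1, 8.83 and 9.04 CPM in the same order, at 1.24 ± 0.73 for old control against young (adjusted p = 0.579). Old control replicate 2 was highest for both Cyp2c genes, and without it their folds against young were 1.56 for Cyp2c69 and 0.22 for Cyp2c40. These copies cannot be fully separated by sequence, since 60.3% of the windows of Cyp2c40 and 54.3% of those of Cyp2c69 occur in other genes. Cyp2b13, Cyp3a16, Cyp3a41a, Cyp3a41b and Cyp3a44 stayed at or below 2.3 CPM in each liver.

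The close relation of the Cyp2c copies extends upstream. The sequences below, each 39 bases on the minus strand of GRCm38.p6 from RefSeq, surround a CAAAGTCCA element (capitals) of the kind bound by HNF4, a receptor that maintains hepatocyte expression, and are shown because they tell the close copies from the more distant genes.
Cyp2c40: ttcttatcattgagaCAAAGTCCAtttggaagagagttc
Cyp2c69: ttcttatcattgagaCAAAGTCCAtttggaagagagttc
Cyp2c67: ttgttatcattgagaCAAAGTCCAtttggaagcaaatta
Cyp2c68: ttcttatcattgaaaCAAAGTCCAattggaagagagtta
Cyp2c70: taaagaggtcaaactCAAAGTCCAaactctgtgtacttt
Cyp3a11: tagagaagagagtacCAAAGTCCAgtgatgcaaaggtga
Cyp3a41a: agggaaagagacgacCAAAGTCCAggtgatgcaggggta
They lie, in this order, at chr19:39812836-39812874, chr19:39886821-39886859, chr19:39649144-39649182, chr19:39741155-39741193, chr19:40187327-40187365, chr5:145879940-145879978 and chr5:145720208-145720246. Cyp2c40 and Cyp2c69 are identical over the 39 bases, Cyp2c68 and Cyp2c67 differ from them at 3 and 5 positions, and Cyp2c70 at 24. The levels of the 4 close copies differed all the same: Cyp2c68 averaged 145 and Cyp2c67 141 CPM per kilobase, beside 7.63 for Cyp2c40 and 6.46 for Cyp2c69. Neither of the abundant pair was uneven in the way of the rare pair: Cyp2c67 ranged from 124 to 319 and Cyp2c68 from 143 to 337 CPM over the 9 livers.

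A search of the 250 upstream bases covered 53 of the 61 symbols and 11 motifs, on both strands, beside all 32851 RefSeq windows of the same length. The motifs described here were picked after their matches had been seen. CAAAGTCCA occurred in 10 P450 genes (18.9%) and in 0.384% of all windows. TTATGCAA, the D-box, occurred in 5 (9.43%, Cyp2a4, Cyp2a5, Cyp2b10, Cyp2b19 and Cyp2b23) and in 0.694% of all. TATAAA occurred in 25 (47.2%), beside 12.4%. GCGTG, the core of the dioxin response element, occurred in 9 (17%), beside 28.2%, with Cyp1a1 and Cyp1b1 among the 9. The longer TNGCGTG, which contains it, occurred in 1, beside 4.1%, and CACGTG in 1, beside 6.02%. No match was found for TTATGTAA (0.819% of all windows), TTACGTAA (0.113%), an HNF1 element (GTTAAT, 1 base, ATTAA; 0.0609%), direct repeats of AGGTCA with 1 base between (0.0335%) or of AGTTCA with 4 bases between (0.00913%). The P450 promoters are copies of one another within clusters, so their matches are not independent.

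The partners of these enzymes were examined by lists. Of 16 genes for electron supply and haem synthesis, 0 were called in any comparison. For old control against young the median log2 difference was -0.31, beside 0.01 over all tested genes, and 3 were lower and 0 higher at an unadjusted p under 0.05, beside 4.07% and 6.42% of all. For old Fabp4 shRNA against old control the median was 0.14, beside -0.01, with 0 lower and 2 higher, beside 3.48% and 3.27%. The third comparison, old Fabp4 shRNA against young, had a median of -0.07, beside 0.02, with 2 lower and 0 higher, beside 4.5% and 4.43%. Por, the P450 oxidoreductase, was 444, 597 and 677 CPM in young, 290.5, 270.3 and 374 in old control and 691, 324 and 578 in the third group. Old control lay below the young without overlap and overlapped the third group. Its fold was -0.88 ± 0.3 against young (adjusted p = 0.366) and the third group stood 0.77 ± 0.29 above old control (adjusted p = 0.728). Cyb5b, a cytochrome b5 of the outer mitochondrial membrane, was 154, 132 and 94.8 CPM in old control and 178, 249 and 195 in the third group, at 0.71 ± 0.23 (adjusted p = 0.728). Cyb5a, the other cytochrome b5 listed, went the other way, at -0.49 ± 0.28 with overlap (adjusted p = 0.779). Cyb5r3, the reductase of cytochrome b5, was 432, 268 and 436 CPM in young and 215, 205 and 194 in the third group, at -0.89 ± 0.23 (adjusted p = 0.343). Against old control, at 282, 278 and 237 CPM, the third group was also lower without overlap, at -0.38 ± 0.23 (adjusted p = 0.796). In old Fabp4 shRNA against old control, 11 of the 16 genes were higher and 5 lower.

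Of 33 receptors and regulators, 32 were tested and 0 called in any comparison. Before adjustment, 1 stood higher and 0 lower at 0.05 in old control against young, 3 higher and 0 lower in old Fabp4 shRNA against old control, and 3 higher and 1 lower in old Fabp4 shRNA against young. Of all tested genes 10.5%, 6.75% and 8.93% did so in either direction in these comparisons. The medians of the list were 0.05, 0.12 and 0.17, beside 0.01, -0.01 and 0.02 over all tested genes. Rxra, the partner of CAR, PXR and PPAR-alpha, was 254, 248 and 183 CPM in old control and 351, 425 and 372 in the third group, without overlap, at 0.75 ± 0.22 (adjusted p = 0.728). Cux2, a factor of female mouse liver, was 4.36, 9.71 and 9.31 CPM in young and 1.47, 0.386 and 0.888 in the third group, at -3.09 ± 0.95 (adjusted p = 0.443). The CAR gene Nr1i3 and the PXR gene Nr1i2 overlapped between all groups, at 22.5 to 69.8 and 62.7 to 94.8 CPM.

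Among 22 further targets of these receptors, 21 were tested and 0 called in any comparison, with 2 higher and 3 lower before adjustment in old control against young, 3 higher and 3 lower in old Fabp4 shRNA against old control, and 1 of each in old Fabp4 shRNA against young. The shares of all tested genes were again 10.5%, 6.75% and 8.93%, and the medians of the list were -0.11, 0.01 and -0.2, beside the same medians of all genes. Sult1e1, an oestrogen sulfotransferase, was 0.517, 0.447 and 0.687 CPM in young and 4.42, 13.1 and 1.2 in old control, without overlap, at 3.49 ± 0.79 (adjusted p = 0.192). Ces2a, a carboxylesterase, had a mean of 451 ± 87.8 CPM in young and 257 ± 26.4 in old control (SD, n = 3), at -0.81 ± 0.24 (adjusted p = 0.318). These genes were chosen after their values were seen, and others of the list differed by more than Ces2a. In old control against young, Abcb1a was lower, at -1.53 ± 0.44 (adjusted p = 0.296). Aldh1a7 was higher there, at 0.94 ± 0.28 (adjusted p = 0.299).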

How the data were processed

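The submitters' processing notes name HISAT2 and the build GRCm38.p6. How reads were assigned to genes, and with what strand setting, is not given in the sources used here, so overlapping and antisense genes cannot be separated. The authors deposited unscaled read counts per gene, and FPKM, fragment counts scaled to gene length and library size. In the FPKM table, 8 columns were a fixed multiple of the counts in 100% of 10483 genes (at least 20 counts, tolerance 0.001), and the column of the unnumbered young library in 0.229%. Of 17252 values in that column, 100% gave whole reads within 0.05 reads, 11805823 in all, and 226 genes were lost.

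Counts were filtered with filterByExpr, scaled by TMM and fitted in edgeR 4.0.16 (R 4.3.3) by robust quasi-likelihood with 1 mean per group over 9 libraries (6 residual degrees of freedom, biological coefficient of variation 0.32). All p-values are two-sided, and SE is the log2 fold change divided by the root of F. Floors of 3 counts cover counting error only. The design named lengths implied by both tables; GENCODE mouse release 21 exon lengths were used, which matched those for 95.4% of the genes within 1%. The pipeline was tested on simulated data. The alternatives used DESeq2 1.42.0, limma 3.58.1 (pseudocounts 1 and 0.1), other scalings and filters, fits to 6 libraries, a replicate block and leaving out each library.

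Genes were named where they were the highest of their subfamily, among the 8 smallest p of a comparison, or on a list of 19 well-known genes. Cyp2c40, Cyp2c67, Cyp2c68, Cyp2c70, Cyp2a22, Cyp2d26, Cyp3a13 and Cyp3a25 were chosen after their values were seen. So were others given only by their range, and the genes named from the lists of partners. The members and lists were chosen with earlier results of these data known.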

Additional observations from a re-analysis of the deposited data

How the results depend on the processing

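Of 635 recomputed fold changes for 34 gene comparisons, 622 kept direction and side of the threshold, 8 newly passed it, 0 newly failed it and 5 changed sign. Calls of P450 genes for old control against young rose from 0 to 2 (Cyp2a5 at -2.43 and Cyp2a4 at -2.88, adjusted p = 5.3e-05 and 0.00784) in the replicate block fit on the 5 libraries with shared numbers and to 2 in the fit of the same libraries without the block, added after seeing the data. The count at an unadjusted p under 0.05, 5 of 39 as reported (10.5% of all tested genes), was 15 of 46 with the replicate block (16.8% of all), 11 of 46 without it on those libraries (14%), 8 by limma with pseudocount 1 and 0.1 (13.5% and 13.6%), 9 of 40 with the recovered reads (13.9%) and 3 to 6 leaving out 1 library. For old Fabp4 shRNA against old control it was 1 of 36 with the stricter filter (6.9% of all), 1 of 36 in the fit to 6 libraries (6.41%) and 1 to 6 leaving out 1 library, beside 2 (6.75%). For old Fabp4 shRNA against young, beside 4 (8.93%), it was 8 of 55 with no filter (7.67%), 7 of 55 by DESeq2 (6%), 10 by limma with pseudocount 1 (16.5%), 10 with pseudocount 0.1 (16.8%), 10 of 40 with the recovered reads (17.2%) and 2 to 8 leaving out 1 library, and 1 gene, Cyp2c23, was called with no filter, by DESeq2, by limma with pseudocount 0.1 and with the recovered reads. The sign changed for Cyp2c40 in old control against young with the replicate block (-0.23), for Cyp2b9 with the block (-0.45) and without it on those libraries (-0.61), for Cyp2a5 in old Fabp4 shRNA against old control without replicate 1 of the former (-0.36, and up to 2.07 over the other libraries left out), and for Cyp2c40 there without old control replicate 2 (0.16, and down to -1.4). The cause of these changes was not tested. Both fits to the 5 libraries compared only 2 old control with 2 young livers and left few residual degrees of freedom. Their p-values and counts are therefore weak evidence. The numbers 1 and 5 occur in the labels of both young and old control. Correlations of same-numbered deviations were 0.11, 0.09, -0.05 and 0.03. Differently numbered livers were not compared, so these values cannot decide whether the numbers pair the livers. For the other 2 comparisons no paired analysis was possible because each shares only 1 number. Other scalings moved the median of all genes by less than 0.1. Genes below 1 CPM are limited by depth.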
